A study of Mus musculus with 12 samples.

Results

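UDP-glucuronosyltransferase (UGT), sulfotransferase (SULT) and glutathione S-transferase (GST) genes were followed in mouse liver and in a macrophage cell line treated with esculetin, a plant coumarin. The members were the protein-coding genes whose mouse symbol begins with Ugt1a, Ugt2a or Ugt2b, with Sult and a digit, or with Gst, a class letter and a digit. This rule uses names only and found 64 genes among the 55357 gene identifiers of the count tables. They comprise 9 UGT1A, 10 UGT2, 21 SULT and 24 GST genes, and all 64 are listed in both tables.

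RNA was sequenced in 12 libraries, 3 in each of 4 groups. The liver libraries came from wild-type C57BL6/J male mice of 8 to 9 weeks, gavaged daily for 7 days with esculetin at 90 mg/kg or with the vehicle, 2.5% Tween-80, which serves as control. All mice ate a diet deriving 10% of kcal from fat during the initial 4 days, then one deriving 60% from fat during the last 3. The cells were RAW264.7, an established mouse macrophage line, and every culture received 25 µg/mL DiI-labelled oxidized low-density lipoprotein (oxLDL) for 24 h, with esculetin at 40 µg/mL or with DMSO as control. According to the study, a liver sample holds material of a pair of mice. The labels do not say whether the cell libraries came from separate cultures, so the p-values in the cells measure the spread between these libraries, which may be technical. There was no group without the high-fat diet or without oxLDL.

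Phase II enzymes make lipophilic compounds soluble by attaching a polar group. UGT enzymes in the endoplasmic reticulum transfer glucuronic acid from UDP-glucuronate, cytosolic SULT enzymes transfer sulfate from the donor PAPS, and GST enzymes attach the tripeptide glutathione to electrophiles. The liver is the main site of these reactions, and transporters then carry the conjugates into bile or blood. Coumarins with hydroxyl groups, esculetin among them, are substrates of glucuronidation and sulfation.

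The UGT1A genes are not independent loci. In the mouse each has its own promoter and first exon, which encodes the part of the enzyme that binds the substrate, and all are spliced to the same downstream exons. In the GENCODE annotation of build GRCm39 the 9 genes lay on chromosome 1, and their last 735 coding bases were the same. The ends of 6 first exons are printed here because a read that lies wholly in the shared exons cannot tell the genes apart. A read that reaches only into these ends does not separate genes whose ends are identical. Lower case marks the last 30 bases of the first exon and capitals the first 30 bases of the shared exon, which starts at position 88142766.

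Ugt1a1: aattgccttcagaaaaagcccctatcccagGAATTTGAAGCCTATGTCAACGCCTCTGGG
Ugt1a2: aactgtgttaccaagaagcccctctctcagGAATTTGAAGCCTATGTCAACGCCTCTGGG
Ugt1a5: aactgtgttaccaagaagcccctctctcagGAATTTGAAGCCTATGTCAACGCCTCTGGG
Ugt1a6a: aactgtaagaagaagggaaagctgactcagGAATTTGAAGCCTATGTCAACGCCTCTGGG
Ugt1a7c: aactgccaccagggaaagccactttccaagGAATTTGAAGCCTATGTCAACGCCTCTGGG
Ugt1a9: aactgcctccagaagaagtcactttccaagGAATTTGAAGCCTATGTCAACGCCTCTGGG

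The Ugt1a5 and Ugt1a2 ends were identical over all 30 bases, whereas 21 of 30 bases of Ugt1a1 matched Ugt1a5 at the same position. The end of Ugt1a6b, which is not printed, was identical to that of Ugt1a6a. Over whole transcripts, 74.4% of the 100-base windows of Ugt1a5 occurred exactly in another annotated gene, as did 69.6% of those of Ugt1a1 and 77.0% of those of Ugt1a6b. The deposited counts nevertheless differed widely along the locus. Ugt1a2 and Ugt1a8 held 0 counts in every liver library, while Ugt1a1 reached 1594, so reads from the shared exons had not been credited to every gene. Whether such reads were dropped or given to a single gene was not stated. Levels below are in counts or CPM (counts scaled to library size) without correction for length, except where levels of different genes are compared. Those are given per kilobase of exon that a gene shares with no other gene on its strand, which was 915 bases for Ugt1a1 and 919 for Ugt1a5. Exon bases were pooled over all annotated transcripts, so genes with more or longer annotated exons get lower values. For the Ugt1a genes this scale fits only if reads of the shared exons were dropped. On this scale the control livers held 63.8 ± 19.2 CPM per kb of Ugt1a1, 31.3 ± 4.15 of Ugt1a5, 25.0 ± 4.17 of Ugt1a6b and 22.9 ± 5.65 of Ugt1a9 (SD, n = 3), and neighbours in this order after Ugt1a1 overlapped between libraries. An annotated gene on the opposite strand leaves only 375 of the 915 bases of Ugt1a1 free, and the strand setting of the counting was not stated.

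The second set of sequences belongs to Ugt2b38, the member that rose most in the liver, and to the neighbours whose promoters resemble it. Each line gives the 250 bases before the annotated start in RefSeq (build GRCm38.p6), read 5′ to 3′, and capitals mark the 62 bases that all 3 share without a mismatch. The windows lie at chr5:87424204-87424453, minus strand, at chr5:87254789-87255038, minus strand, and at chr5:87140341-87140590, minus strand.

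Ugt2b38: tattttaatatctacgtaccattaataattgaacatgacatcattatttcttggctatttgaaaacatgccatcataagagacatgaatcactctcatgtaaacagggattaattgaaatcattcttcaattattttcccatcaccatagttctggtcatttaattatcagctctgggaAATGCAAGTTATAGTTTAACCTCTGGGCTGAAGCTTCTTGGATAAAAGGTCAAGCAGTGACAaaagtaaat
Ugt2b37: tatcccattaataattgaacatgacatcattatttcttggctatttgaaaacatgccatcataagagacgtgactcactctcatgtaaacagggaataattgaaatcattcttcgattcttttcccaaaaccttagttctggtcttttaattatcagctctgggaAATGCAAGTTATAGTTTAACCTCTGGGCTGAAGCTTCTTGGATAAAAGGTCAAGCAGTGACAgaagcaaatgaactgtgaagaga
Ugt2b5: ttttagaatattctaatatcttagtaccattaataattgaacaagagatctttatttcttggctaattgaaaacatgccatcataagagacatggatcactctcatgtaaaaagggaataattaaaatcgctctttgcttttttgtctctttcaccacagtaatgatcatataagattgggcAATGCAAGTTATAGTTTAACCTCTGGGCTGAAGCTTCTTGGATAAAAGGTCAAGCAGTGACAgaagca

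Over the whole windows, from 250 bases before to 50 bases after the start, the Ugt2b38 promoter was 87.3% identical to that of Ugt2b37 and 84.2% to that of Ugt2b5. It was 53.0% identical to that of Ugt2b1. Similarity extends into the transcripts. Of the 100-base windows of Ugt2b38, 24.2% occurred in Ugt2b5 or Ugt2b37, against 0% for Ugt2b1.

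A liver library held between 14659876 and 20346460 counts and a cell library between 13752842 and 20001959. Liver control replicate 1 stood apart from the other liver libraries in its scaling factor, 1.11 against 0.963 to 0.997. Values are counts scaled to library size (CPM), with library sizes adjusted by the trimmed mean of M-values (TMM). Hepatocyte markers summed to 109914 to 129022 CPM in the control livers and 99537 to 125659 CPM in the esculetin livers. In the cells 5 of 6 hepatocyte markers had 0 counts in every library. Macrophage markers in the cells summed to 1326 to 1496 CPM without and 2102 to 2517 CPM with esculetin, with 2 of 8 called higher, 1 called lower and Timd4 at 0, and their part in the results below was not tested. In bulk RNA, fewer cells of a type and less RNA per cell cannot be told apart.

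Members took between 0.973% and 1.05% of all liver counts, depending on the library, and only between 0.0218% and 0.0245% in the cells. In at least 1 library, 46 members exceeded 3 counts in the liver and 19 did so in the cells. The liver was rich in GST mRNA, and the highest control levels per kilobase were those of Gstp1 at 774 ± 214 CPM per kb, Gstm1 at 503 ± 36.0, Gsta3 at 325 ± 29.4, Ugt2b5 at 231 ± 18.5 and Gstt1 at 183 ± 42.2 (SD, n = 3). This order depends on the pooled exon length, which was 1.63 kb for Gstp1 and 5.73 kb for Gsta3. Gstz1, at 1021 CPM in the control livers, came to 95.2 CPM per kb over 10.7 kb. Among the SULT genes Sult1a1, a phenol sulfotransferase, led with 142 ± 17.6 CPM per kb. Between these control libraries the levels per kb of Gstp1 and Gstm1 overlapped, as did those of Ugt2b5 and Gstt1, so neither pair is ordered firmly. The levels of Gstp1 and Ugt2b5 did not overlap. Sult2a1 to Sult2a6, Sult3a1 and Sult3a2, of subfamilies known for high expression in the female mouse liver, held at most 3 counts in any of these male libraries. The cells expressed a different and much smaller set. All 10 UGT2 genes had 0 counts in every cell library, and a count of 0 allows a level of up to 0.146 to 0.220 CPM. Sult5a1 was the member with most counts in the cells, 1720 to 2731 per library.

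The liver comparison asks how phase II transcripts differ after 7 days of esculetin. Of 41 members that passed the filter on low counts, 2 were called at an adjusted p under 0.05 (edgeR quasi-likelihood test, Benjamini-Hochberg over all genes). Ugt1a5 was lower and Ugt2b38 was higher. Over all 12813 genes tested, 11 were called, which is 0.0859%, with 0.0312% higher and 0.0546% lower. At an unadjusted p under 0.05 there were 13 members, 7 higher and 6 lower, or 13 of 41 where the share over all genes tested was 8.37% (3.39% higher, 4.98% lower). A limma-voom p under 0.05 with a fold change over 1.5 held for 10 members, beside 3.89% of all genes. The same number, 13 of 41, had control and esculetin libraries that did not overlap, beside 14.5% of all genes tested. The median log2 fold change of the 41 members was -0.034, and that of all genes tested was -0.020.

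Among the UGT1A genes the level of Ugt1a5 (ENSMUSG00000089943, build GRCm39, chromosome 1, 88093707 to 88147724) was 31.6, 30.3 and 24.4 CPM in the control libraries and 7.85, 13.1 and 7.64 in the esculetin libraries. All 3 esculetin libraries lay below all 3 controls. The mean went from 28.8 ± 3.82 to 9.51 ± 3.07 CPM (SD, n = 3), 3.03-fold lower, with a log2 fold change of -1.60 (SE 0.21) and an edgeR adjusted p of 0.0225. This gene is the 1 UGT1A gene called, and the call was lost without control replicate 2 (edgeR adjusted p 0.0848), esculetin replicate 1 (0.210) or esculetin replicate 3 (0.246) and with scaling by library size only (0.0891). Its log2 fold change stayed between -1.90 and -1.48 when any 1 library was left out.

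The other UGT1A genes are best read beside it, since they share its exons. Ugt1a1, the enzyme that conjugates bilirubin, showed 49.8, 78.7 and 46.8 against 51.2, 60.4 and 53.5 CPM in the control and esculetin libraries. Its groups overlapped, with a log2 fold change of -0.088 (SE 0.18), and control replicate 2 was the highest library. Ugt1a6b also overlapped, at 26.8, 30.9 and 22.1 against 27.6, 23.1 and 20.4 CPM, and its log2 fold change was -0.17 (SE 0.16). Ugt1a9 showed 25.2, 24.6 and 15.6 against 14.6, 14.1 and 17.7 CPM. The log2 fold change of Ugt1a9 was -0.50 (SE 0.19), with an unadjusted p of 0.0219 and an edgeR adjusted p of 0.513. Ugt1a6a, whose human counterpart conjugates simple phenols, was rare, with 58, 27 and 18 against 12, 8 and 5 counts. Its log2 fold change was -1.95 (SE 0.53), its edgeR adjusted p 0.305, and control replicate 1 held more than the sum of the other controls. Of the 100-base windows of Ugt1a6b, 77.0% occurred in Ugt1a6a, shared exons included. The division of reads between Ugt1a6a and Ugt1a6b is therefore uncertain. All 5 tested UGT1A genes had a negative log2 fold change, with a median of -0.50, but for Ugt1a1 the sign turned without control replicate 2, to 0.19. Ugt1a10 and Ugt1a7c did not pass the filter, and no count above 16 was seen for either.

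A sum over the locus does not depend on how the counted reads are divided among its genes. Reads of the shared exons are missing from it if they were dropped. The 9 UGT1A genes summed to 138, 167 and 110.3 CPM in the control libraries and 102, 112 and 100.2 in the esculetin libraries. Every esculetin library but replicate 2 lay below the lowest control, and the mean went from 138 ± 28.5 to 105 ± 6.37 CPM (SD, n = 3). Without Ugt1a5 the sum went from 109.7 ± 25.8 to 95.5 ± 3.36 CPM, and the groups overlapped. The plot of the locus shows the levels by position of the first exon.

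**Figure D1:**
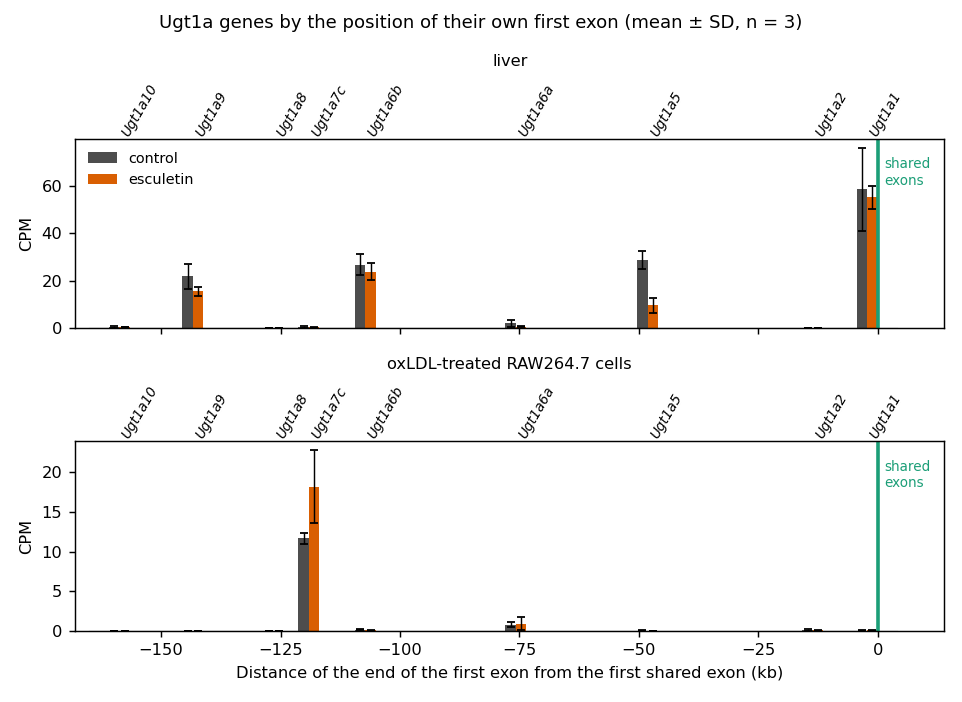
Mean level of each Ugt1a gene (bars, CPM; error bars SD, n = 3) against the distance in kb of its first exon from the first shared exon, in the liver (top) and in oxLDL-treated RAW264.7 cells (bottom), for control (grey) and esculetin (orange). In the liver counts came mainly from Ugt1a1, Ugt1a5, Ugt1a6b and Ugt1a9, with Ugt1a5 at 9.51 against 28.8 CPM, while in the cells they came mainly from Ugt1a7c, at 18.2 against 11.7 CPM.

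Of 8 UGT2 genes tested in the liver, 1 was called, and it was higher. Their log2 fold changes were positive for 4 and negative for 4, with a median of 0.018. Ugt2b38 (ENSMUSG00000061906) had 7.00, 10.3 and 8.57 CPM in the control libraries and 35.4, 17.5 and 22.8 in the esculetin libraries. Esculetin replicate 1 was the highest, and all 3 esculetin libraries exceeded all 3 controls. The mean went from 8.63 ± 1.66 to 25.3 ± 9.19 CPM (SD, n = 3), 2.92-fold higher, with a log2 fold change of 1.55 (SE 0.24) and an edgeR adjusted p of 0.0385. The call did not hold in 5 of the 6 fits that left out 1 library, with adjusted p-values of 0.0601 to 0.274, and held at 0.0175 without esculetin replicate 2. It was also lost with scaling by library size only (0.135), with a minimum of 1 CPM in 3 libraries (0.0688) and in limma-voom (0.0699). Neither of its 2 close relatives in sequence was called. Ugt2b37 had 7, 33 and 30 against 113, 10 and 36 counts, overlapping between groups, with a log2 fold change of 1.26 (SE 0.64). Ugt2b5 showed 534, 626 and 568 against 572, 544 and 569 CPM, and its log2 fold change was -0.036 (SE 0.12). Reads of Ugt2b38 that also match Ugt2b5 are uncertain, since the handling of such reads was not stated.

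Ugt2b1, an abundant liver UGT that shares no 100-base window with another gene, showed 357, 459.6 and 469 against 1049, 627 and 757 CPM in the control and esculetin libraries. The groups did not overlap, esculetin replicate 1 was again the highest, and the level was 1.89-fold higher with esculetin. Its log2 fold change of 0.92 (SE 0.19) had an unadjusted p of 3.21e-04, but an edgeR adjusted p of 0.122, so it was not called. Without esculetin replicate 1 the log2 fold change was 0.68. DESeq2 gave an adjusted p of 1.68e-04 for the same gene. Ugt2b36 stayed at 414 ± 4.33 to 404 ± 17.6 CPM, with a log2 fold change of -0.034 (SE 0.11). The remaining UGT2 genes tested, Ugt2a3, Ugt2b34 and Ugt2b35, had log2 fold changes between -0.25 and 0.070, and Ugt2a1 and Ugt2a2, known from the olfactory mucosa, had 0 counts. The UGT2 sum went from 1943 ± 59.5 to 2280.0 ± 286 CPM.

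None of the 7 SULT genes tested in the liver was called by edgeR in the fit reported here, and 4 had an unadjusted p under 0.05, all of them higher. Sult5a1 showed 12.6, 10.6 and 19.0 against 24.1, 17.5 and 24.8 CPM. The lowest esculetin library lay below the highest control, and the log2 fold change was 0.66 (SE 0.21), with an edgeR adjusted p of 0.436. Sult1d1, an enzyme of catecholamine and phenol sulfation, showed 53.4, 32.4 and 38.2 against 77.4, 62.2 and 47.9 CPM, again overlapping, with a log2 fold change of 0.60 (SE 0.20). Sult1b1, which sulfates thyroid hormones and phenols, showed 21.6, 20.4 and 30.9 against 38.2, 34.4 and 33.1 CPM without overlap and a log2 fold change of 0.54 (SE 0.16). Sult2a7 was at a low level, 14, 23 and 13 against 48, 27 and 28 counts, without overlap and with a log2 fold change of 1.16 (SE 0.34). The edgeR adjusted p-values of these 4 genes lay between 0.340 and 0.448. The abundant Sult1a1 and Sult2a8, the latter a bile acid sulfotransferase of mouse liver, had log2 fold changes of 0.081 (SE 0.15) and 0.17 (SE 0.16). Sult1c2 was the only tested SULT gene with a negative log2 fold change, -0.58 (SE 0.29). The median of the 7 SULT genes was 0.54, and the family sum went from 764 ± 81.3 to 861 ± 86.4 CPM.

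The GST genes carried most of the phase II counts of the liver, and none of the 21 tested was called by edgeR in the fit reported here. At an unadjusted p under 0.05 there were 4, of which 3 were lower. Gstm3 showed 39.1, 29.9 and 40.3 against 15.7, 24.2 and 28.1 CPM. Its groups did not overlap, and its log2 fold change of -0.68 (SE 0.20) had an edgeR adjusted p of 0.319. Gsta1 and Gsta13 were rare, with 49, 57 and 31 against 28, 12 and 8 counts and 20, 26 and 43 against 13, 4 and 15 counts, and neither pair of groups overlapped in CPM. Their log2 fold changes were -1.40 (SE 0.40) and -1.35 (SE 0.48). These 2 genes are near-identical copies, with 80.7% and 85.4% of their 100-base windows found in another gene, so their division of reads is uncertain. Gstz1, which also isomerizes maleylacetoacetate in tyrosine breakdown, showed 837, 1049 and 1177 against 1285, 1261 and 1319 CPM, without overlap and with a log2 fold change of 0.34 (SE 0.14). Its esculetin libraries lay close together, above a wider spread of controls.

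The GST genes with the highest levels per kb in the liver, Gstp1, Gstm1 and Gsta3, were not called. Gsta3 went from 1864 ± 169 to 1948 ± 172 CPM, with a log2 fold change of 0.063 (SE 0.14). Gstm1 went from 1266 ± 90.6 to 1078 ± 203 CPM, with -0.23 (SE 0.15). Gstp1 went from 1264 ± 349 to 1453 ± 350.3 CPM, with 0.20 (SE 0.22) and control replicate 1 as the lowest library. Its near copy Gstp2, with 47.3% of its windows shared, held 38 to 84 counts. The signs of the Gsta3, Gstp1 and Gstt1 log2 fold changes turned without control replicate 1. Across all tested GST genes the log2 fold changes ran from -1.40 to 0.34, with 10 positive and 11 negative, and the sum of the 24 genes went from 6952 ± 930.4 to 7359 ± 241 CPM. The plot of liver members shows the 13 genes with an unadjusted p under 0.05.

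**Figure D2:**
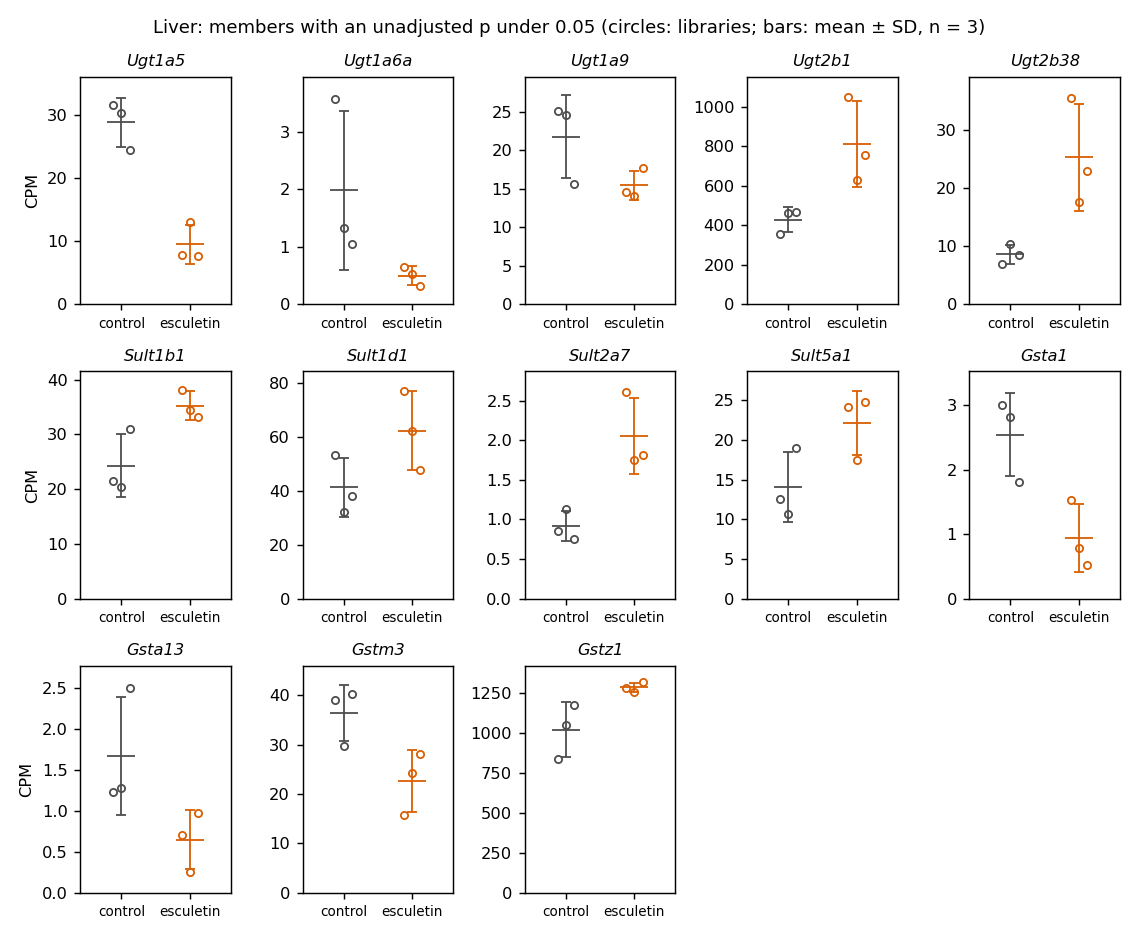
Level in CPM of the 13 members with an unadjusted p under 0.05 in the liver (circles, libraries; bars, mean ± SD, n = 3), control in grey and esculetin in orange, each panel with its own axis from 0. Only Ugt1a5 and Ugt2b38 passed an adjusted p of 0.05, and esculetin replicate 1, drawn leftmost in its group, is the highest library for Ugt2b1 and Ugt2b38.

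Genes that supply, reverse or transport conjugation were read in the same fit. Of 91 such genes in 7 lists, 84 were tested in the liver and 0 were called by edgeR. At an unadjusted p under 0.05 there were 17 of the 84, 7 higher and 10 lower. The share over all genes tested was 8.37% (3.39% higher, 4.98% lower). DESeq2 called 5 of the 84, beside 0.765% of all genes tested. In the glutathione list, Chac1, which degrades glutathione, showed 1.23, 1.33 and 1.57 against 5.61, 3.38 and 3.17 CPM without overlap and a log2 fold change of 1.56 (SE 0.30), at an edgeR adjusted p of 0.110. Gclc, the catalytic subunit of the first step of glutathione synthesis, went from 339 ± 74.5 to 234 ± 19.8 CPM, with a log2 fold change of -0.54 (SE 0.16), at an edgeR adjusted p of 0.347. Slc3a2, the partner subunit of amino acid exchangers, had a log2 fold change of -0.45 (SE 0.12). Among the regulators Nfe2l2, which encodes the oxidant-responsive factor NRF2, showed 76.3, 59.3 and 45.0 against 34.9, 34.4 and 36.6 CPM, with a log2 fold change of -0.77 (SE 0.17), at an edgeR adjusted p of 0.165. Cebpb, which encodes C/EBPβ, went from 64.0 ± 14.2 to 105 ± 13.4 CPM, with 0.71 (SE 0.17), and Nr1h4, the bile acid receptor FXR, had -0.42 (SE 0.11). Among the transporters Slco1a4, an uptake carrier, went from 22.6 ± 4.57 to 11.1 ± 3.60 CPM, with -1.02 (SE 0.22). Of the other conjugating enzymes Nnmt, which methylates nicotinamide, went from 149.8 ± 42.6 to 266 ± 64.6 CPM, with 0.83 (SE 0.21). The adjusted p-values of the 17 genes lay between 0.110 and 0.577.

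The cell comparison asks the same of oxLDL-loaded macrophages after 24 h. Only 11 members passed the filter, and 7 were called at an adjusted p under 0.05 (edgeR quasi-likelihood test, Benjamini-Hochberg), 2 higher and 5 lower. In these cells 57.7% of all 13277 genes tested were called, 28.7% higher and 29.0% lower, so 7 of 11 is near the background. The limma-voom criterion also held for 7, beside 38.0% of all genes. Likewise 9 of 11 members had groups that did not overlap, where the share of all genes tested was 64.1%. The members called lower were 4 GST genes and Sult2b1, and those called higher were Sult5a1 and Ugt1a7c. All 7 calls held in every alternative fit run.

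Each of the 7 GST genes tested in the cells had a negative log2 fold change, with a median of -0.61 beside -0.013 over all genes tested. Gstm1 (ENSMUSG00000058135), a mu class enzyme, had 30.2, 27.0 and 27.1 CPM in the control libraries and 9.51, 7.22 and 5.24 in the esculetin libraries. The groups were far apart, and the level was 3.87-fold lower, with a log2 fold change of -1.95 (SE 0.18) and an edgeR adjusted p of 5.70e-06. Gstp1, the pi class enzyme common in extrahepatic cells, showed 17.2, 18.1 and 17.3 against 10.2, 11.6 and 7.03 CPM. It did not overlap, and its log2 fold change was -0.87 (SE 0.17) (edgeR adjusted p 0.00107), with 23.8% of its windows shared with Gstp2 and a pseudogene. Gsto1, an omega class enzyme that reduces dehydroascorbate and arsenicals, showed 17.7, 20.2 and 20.3 against 10.8, 12.5 and 10.5 CPM. Gsto1 did not overlap either, with a log2 fold change of -0.78 (SE 0.13), at an edgeR adjusted p of 3.23e-04. Gstz1 showed 37.7, 39.2 and 38.3 against 26.2, 26.2 and 23.1 CPM. It was also without overlap, with -0.61 (SE 0.10) (edgeR adjusted p 3.91e-04).

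The other GST genes in the cells were not called. Gstt3, a theta class gene, showed 8.03, 8.23 and 9.44 against 7.25, 6.07 and 6.30 CPM without overlap, and its log2 fold change of -0.39 (SE 0.16) had an edgeR adjusted p of 0.0536. It was called without esculetin replicate 1, at an adjusted p of 0.0343, and with scaling by library size only. Gstm4 and Gstt2 had log2 fold changes of -0.45 (SE 0.32) and -0.17 (SE 0.30), and the sign of Gstt2 turned without control replicate 2. Gstp3 did not pass the filter, with 0, 0 and 0 against 10, 7 and 6 counts, at least 3.34-fold higher with esculetin when the controls are set to the floor of 3 counts per library. Gstt1 did not pass it either, with 7, 17 and 21 against 2, 2 and 5 counts. The GST sum went from 118 ± 1.89 to 64.3 ± 6.61 CPM (SD, n = 3), and every esculetin library lay below every control.

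The SULT genes of the cells went in opposite directions. Sult5a1 had 89.2, 92.7 and 97.8 CPM in the control libraries and 141, 157 and 152 in the esculetin libraries. All esculetin libraries exceeded all controls, and the level was 1.61-fold higher, with a log2 fold change of 0.69 (SE 0.0832) and an edgeR adjusted p of 3.71e-05. Sult2b1, which sulfates cholesterol and other hydroxysteroids, was 2.74-fold lower. It held 39, 43 and 44 against 11, 13 and 12 counts, with a log2 fold change of -1.46 (SE 0.32) and an edgeR adjusted p of 0.00217. No other SULT gene passed the filter.

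Of the UGT genes, Ugt1a7c, whose first exon end is printed above, supplied nearly all counts in the cells, with 11.3, 11.2 and 12.5 CPM in the control libraries and 14.1, 23.2 and 17.3 in the esculetin libraries. The groups did not overlap in CPM, and esculetin replicate 2 was the highest library. With a log2 fold change of 0.64 (SE 0.17), Ugt1a7c had an edgeR adjusted p of 0.00731, and the log2 fold change stayed between 0.43 and 0.79 when any 1 library was left out. Ugt1a6a was the only other tested UGT gene, and its libraries were spread, with 14, 8 and 22 against 25, 7 and 6 counts. Its log2 fold change of 0.18 (SE 0.62) turned to -0.89 without esculetin replicate 1. Of the 100-base windows of Ugt1a7c, 75.9% occurred in another gene, and 73.3% occurred in Ugt1a6a. The division of reads between Ugt1a7c and Ugt1a6a is therefore uncertain. The UGT1A sum went from 12.7 ± 1.08 to 19.3 ± 4.06 CPM. The plot of cell members gives all 11 tested genes.

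**Figure D3:**
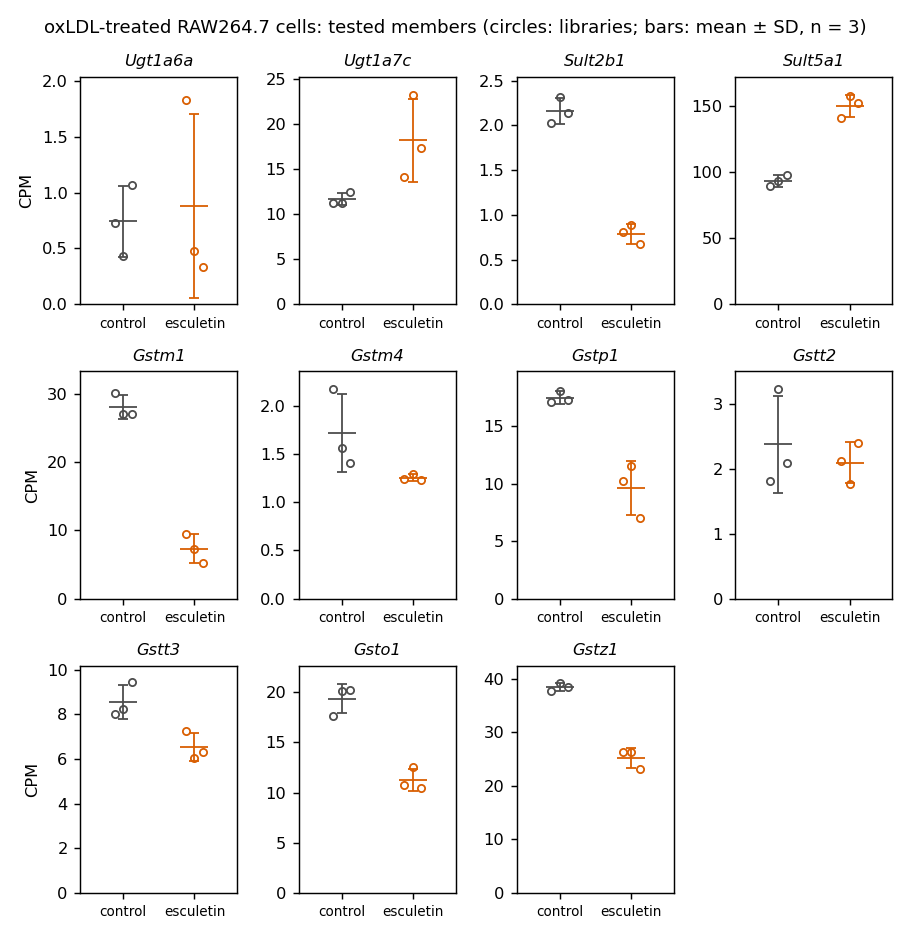
Level in CPM of the 11 members tested in oxLDL-treated RAW264.7 cells (circles, libraries; bars, mean ± SD, n = 3), control in grey and esculetin in orange, each panel with its own axis from 0. Gstm1, Gstp1, Gsto1, Gstz1 and Sult2b1 sit lower and Sult5a1 and Ugt1a7c higher with esculetin, without overlap, while Ugt1a6a and Gstt2 overlap.

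Of the 91 supply, transport and regulatory genes, 59 were tested in the cells and 40 were called by edgeR, 22 higher and 18 lower, or 67.8% beside 57.7% of all genes. In the glutathione list 6 of 15 tested genes were called higher and 5 lower. The higher ones included both subunits of glutamate-cysteine ligase, Gclm with a log2 fold change of 1.25 (SE 0.14) and Gclc with 0.80 (SE 0.0865), and the cystine transporter Slc7a11 with 0.78 (SE 0.14). Gclm went from 64.9 ± 4.03 to 155 ± 35.1 CPM. Oplah, which recovers glutamate from oxoproline, and the NADPH-producing Pgd and G6pdx were also higher, at 1.17, 0.94 and 0.49. The lower ones were Cbs and Cth, the enzymes that make cysteine from homocysteine, with log2 fold changes of -1.94 (SE 0.26) and -1.30 (SE 0.23), together with Slc3a2 (from 203 ± 7.84 to 102 ± 15.6 CPM), the aminopeptidase Lap3 (-0.95) and Gss, the second enzyme of glutathione synthesis (-0.62). The list thus held changes in both directions within a single pathway. These are all 11 called genes of the list, and the 7 beyond those with the 4 smallest p-values were named after their values were seen. Their edgeR adjusted p-values were at most 0.00862.

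Microsomal GST genes belong to another protein family and were listed among the other conjugating enzymes. Mgst2, which can also make a leukotriene, showed 27.5, 28.2 and 28.2 against 101, 79.3 and 53.3 CPM, and its log2 fold change was 1.48 (SE 0.18) (edgeR adjusted p 4.60e-05). Mgst3 showed 52.0, 60.3 and 57.5 against 22.9, 22.5 and 16.6 CPM and the opposite sign, -1.46 (SE 0.13) (edgeR adjusted p 4.98e-06). Neither gene had overlapping groups. The plot of glutathione genes places both beside the GST members.

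**Figure D4:**
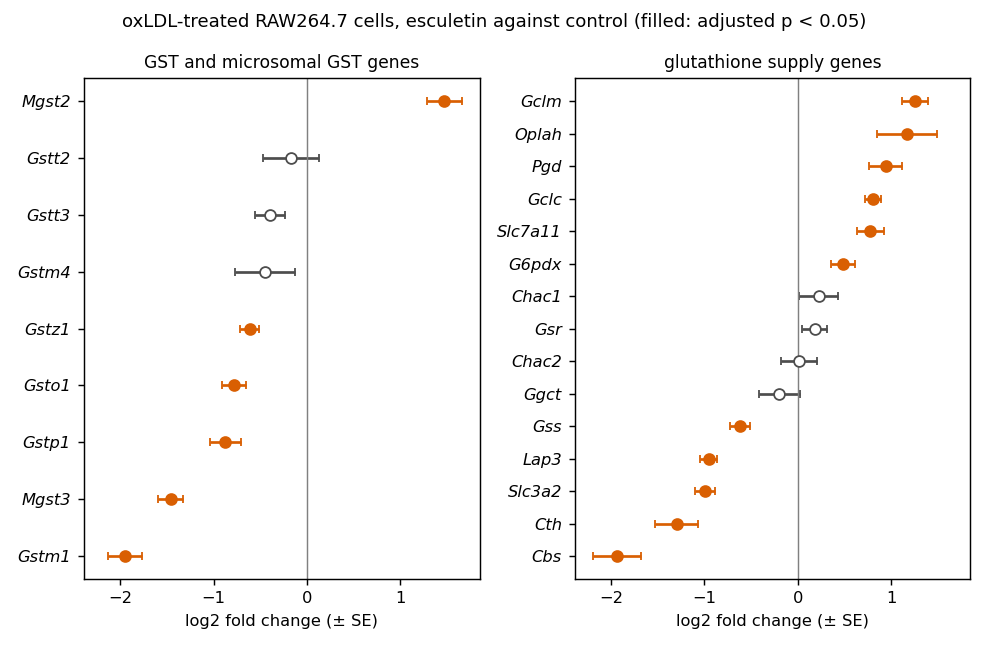
Log2 fold change with esculetin (points; bars, SE) in oxLDL-treated RAW264.7 cells for GST and microsomal GST genes (left) and genes of glutathione supply (right), filled where the edgeR adjusted p was under 0.05. All 7 tested GST members lie left of 0, Mgst2 lies at 1.48, and the supply genes run from -1.94 (Cbs) to 1.25 (Gclm).

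The counts below stand beside 57.7% of all genes tested in the cells, 28.7% called higher and 29.0% lower. All 6 genes of UDP-glucuronate supply were called in the cells, 4 higher and 2 lower. Ugp2, which makes UDP-glucose, had a log2 fold change of 0.58 (SE 0.1000) and Ugdh, which oxidizes it to UDP-glucuronate, 0.47 (SE 0.0847). Pgm1, a phosphoglucomutase, was higher (0.33) and Pgm2 lower (-0.35). In the PAPS list 2 of 7 were higher and 2 lower. Papss1, a PAPS synthase, had -0.62 (SE 0.0973) and the Golgi PAPS transporter Slc35b3 0.78 (SE 0.17). All 6 tested conjugate transporters were called, 4 higher and 2 lower. The efflux pump Abcc1 went from 358 ± 24.6 to 517 ± 51.5 CPM, with 0.53 (SE 0.0960), and Abcc5 from 86.0 ± 3.75 to 55.1 ± 9.55 CPM, with -0.65 (SE 0.12). Abcc3, known for basolateral export of glucuronides, was near the floor without esculetin and held 4, 5 and 3 against 67, 58 and 51 counts. All 4 deconjugating enzymes were called, with Abhd10 (0.74) and the lysosomal glucuronidase Gusb (0.36) higher and the sulfatases Arsb (-0.50) and Arsa (-0.44) lower. Of 15 regulators 3 were higher and 3 lower. Nfe2l2 had 0.71 (SE 0.10) and Cebpb 1.29 (SE 0.12), while Nr0b2, a corepressor, had -1.80 (SE 0.25) and Mafk, a partner of NRF2 on DNA, -0.53 (SE 0.0963). The edgeR adjusted p-values of the genes named in this paragraph were at most 0.0208.

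A 4-group fit of all 12 libraries tested whether the effect in the cells differed from that in the liver. Of 9 members tested in both tables, 4 had a different effect at an adjusted p under 0.05 (edgeR, Benjamini-Hochberg), beside 36.5% of the 10449 genes tested in both. All 4 were GST genes with a more negative effect in the cells, and of the 9 members only Sult5a1 and Ugt1a6a were not GST genes. The difference was -1.76 (SE 0.26, edgeR adjusted p = 1.27e-04) for Gstm1 and -1.03 (SE 0.17, edgeR adjusted p = 3.53e-04) for Gsto1. It was -0.99 (SE 0.18, edgeR adjusted p = 8.76e-04) for Gstz1 and -1.12 (SE 0.32, edgeR adjusted p = 0.0157) for Gstp1. The last was not called without liver esculetin replicate 1 (0.0616) or liver esculetin replicate 3 (0.0575). In the liver Gsto1, Gstz1 and Gstp1 had positive log2 fold changes of 0.20, 0.34 and 0.20, none of them called, and Gstm1 had -0.23.

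Sult5a1 showed nearly equal estimates in both tables, with 0.66 for the liver against 0.69 for the cells. In the 4-group fit, which scales all 12 libraries together, the cells minus liver difference was -0.013 (SE 0.24). A difference of the size of that error, or somewhat larger, could not be seen. Ugt1a6a had opposite signs and a difference of 2.10 (SE 0.90, edgeR adjusted p = 0.0975), which did not pass the threshold. The differences for Gstt3, Gstm4 and Gstt2 were -0.63, -0.24 and 0.064, and none passed. Material, dose, route and duration all differed between the tables, so their contributions cannot be told apart.

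**Figure D5:**
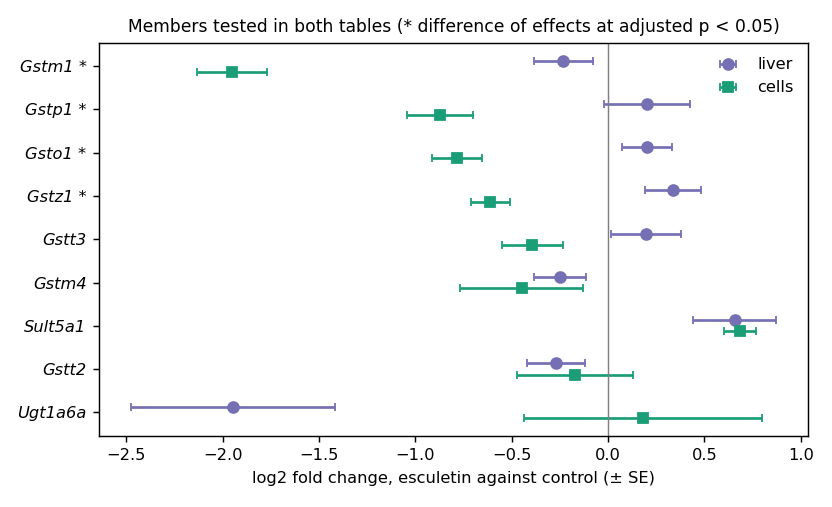
Log2 fold change with esculetin (points; bars, SE) in the liver (circles) and in oxLDL-treated RAW264.7 cells (squares) for the 9 members tested in both tables, with an asterisk where the difference of effects had an edgeR adjusted p under 0.05. Gstm1, Gstp1, Gsto1 and Gstz1 lie further left in the cells, and Sult5a1 lies to the right of 0 in both.

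The promoter windows of the members were searched for 4 motifs, as a description that the choice of members did not use. RefSeq gave 66 windows for 55 members. The core of the antioxidant response element, TGACNNNGC on either strand, occurred in 3 windows, 4.55%, where 12.4% of all 32817 promoter windows hold it. The core of the aryl hydrocarbon response element, GCGTG on either strand, occurred in 13 windows (19.7%, all promoters 32.4%). TTGCNNAA, a C/EBP motif, also occurred in 13 windows (19.7%, all promoters 10.8%), and a long palindrome of the HNF1 motif in 0 (all promoters 0.00914%). The Ugt1a5 promoter is printed because this gene fell most clearly in the liver. It holds 1 GCGTG, shown in capitals, in the 250 bases before the start (RefSeq, GRCm38.p6, chr1:88165762-88166011, plus strand).

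Ugt1a5: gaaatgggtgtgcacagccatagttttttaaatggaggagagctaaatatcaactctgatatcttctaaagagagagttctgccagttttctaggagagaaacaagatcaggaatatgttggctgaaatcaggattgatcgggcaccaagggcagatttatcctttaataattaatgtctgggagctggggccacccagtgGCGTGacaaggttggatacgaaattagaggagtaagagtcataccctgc

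None of the 4 motifs was found in the windows of Ugt2b38 and Ugt2b37, and those of Ugt2b1 and Ugt2b5 held 1 C/EBP motif each. A match of letters does not show that a factor binds there.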

How the data were processed

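The authors extracted RNA with Trizol, prepared libraries with a NEBNext Ultra kit, aligned paired-end reads to GRCm39 with HISAT2 2.2.1 and counted reads per gene locus with featureCounts. The annotation release, the strand setting and the treatment of reads matching several genes are not given in the sources used here. The deposited values are raw whole-number counts for 55357 gene identifiers, of which 54749 matched the mouse GENCODE release M39.

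Each table was fitted alone with edgeR 4.0.16 in R 4.3.3, with filterByExpr, TMM factors, the quasi-likelihood test and Benjamini-Hochberg adjustment over all genes tested. Tests were two-sided, and genes were called at an adjusted p under 0.05. An SE is the log2 fold change divided by the square root of its F statistic. Errors of CPM are SDs over 3 libraries and hold biological and counting error together. Effects in cells and liver were compared in a 4-group model. Sequence windows, junctions and promoters were read with Python 3.11.15. The fits were tested on simulated counts. Replicates of a group differed by more than counting noise.

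The members, pathway lists and marker lists were chosen with earlier results of these data known. Members were named if called in a table, if at an unadjusted p under 0.05 in the liver, or if among the 3 highest of their family. Up to 4 genes with the smallest p were named per pathway list. Ugt2a1, Ugt2a2, Ugt2a3, Ugt2b34, Ugt2b35, Ugt2b37, Ugt1a2, Ugt1a8, Ugt1a10, Sult1c2 and the silent SULT genes were named outside this rule, after their values were seen. The alternatives were RLE and unscaled library sizes, other filters, DESeq2 1.42.0, limma-voom (limma 3.58.1), the authors' stated criterion of an unadjusted p under 0.05 and a fold change over 1.5, a replicate block, and leaving out each library. One gene of the lists is not reported here by name.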

Additional observations from a re-analysis of the deposited data

Results flagged for a closer look

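Esculetin had a different effect in oxLDL-treated RAW264.7 cells and in the liver for 4 GST genes, by the test of the difference itself (edgeR 4-group fit, Benjamini-Hochberg). These were 4 of 9 members tested in both tables, beside 36.5% of all genes tested in both. Of those 9 only Sult5a1 and Ugt1a6a were not GST genes. The effect in the cells minus that in the liver, on the log2 scale, was -1.76 (SE 0.26, edgeR adjusted p = 1.27e-04) for Gstm1 and -1.03 (SE 0.17, edgeR adjusted p = 3.53e-04) for Gsto1. It was -0.99 (SE 0.18, edgeR adjusted p = 8.76e-04) for Gstz1 and -1.12 (SE 0.32, edgeR adjusted p = 0.0157) for Gstp1, and the last was not called without liver esculetin replicate 1 (edgeR adjusted p 0.0616) or 3 (0.0575). All 3 cell esculetin libraries lay below all 3 cell controls for each of these genes. The liver groups overlapped for Gstm1 and Gstp1, and for Gsto1 and Gstz1 the 3 esculetin livers lay above the 3 controls. The part of material, dose, route and duration in these differences cannot be told apart.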

How the results depend on the processing

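The number of liver members called was 2 in the reported fit, where 0.0859% of all genes tested were called. It was 0 with library size only (no gene of the whole table called, 15 members at an unadjusted p under 0.05, edgeR), 10 without a filter on low counts (all genes 1.52%), 1 with a minimum of 1 CPM in 3 libraries (0.0840%), 1 in limma-voom (0.0859%), 3 in DESeq2 (0.765%) and 10 by the authors' criterion (3.89%). It ranged from 0 to 2 when 1 library was left out. It was 0 without control replicate 2, esculetin replicate 1 or esculetin replicate 3, with 10, 11 and 12 members at an unadjusted p under 0.05. The SULT and GST genes that edgeR called without a filter were Sult1b1, Sult1d1, Sult5a1, Gsta1 and Gstm3. With a replicate block they were Sult1d1, Sult5a1 and Gstm3. The number of liver pathway genes called was 0 and became 6 without a filter, 5 in DESeq2 and 7 by the authors' criterion. It ranged from 0 to 2 when 1 library was left out. The number of cell pathway genes called, 40, became 23 by the authors' criterion (38.0% of all genes).

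Same-numbered libraries did not deviate together in every pair. Their correlations, by replicate number, were 0.15, -0.0079 and 0.11 (liver) and 0.19, -0.039 and 0.11 (cells). For pairs with different numbers the lowest and highest values were -0.17 and 0.11 (liver) and -0.20 and 0.13 (cells). Deviations from a mean of 3 libraries depend on one another, so these values cannot show whether same-numbered libraries were paired. With a replicate block 7 liver members and 5 liver pathway genes were called, where calls over all genes went from 11 to 123 of 12813 (0.960%), and 7 members and 41 pathway genes in the cells (all genes 60.1%). The block left the count of members with a different effect at 4.

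A few small changes turned sign, all of genes not called. With library size only Gstt1 in the liver was -0.021 and the Sult5a1 difference 0.018. The latter was 0.0068 with RLE size factors, and Ugt1a6a in the cells was -0.12 in limma-voom. With 1 library left out the liver log2 fold change ranged from -0.017 to 0.12 for Gsta3, from -0.0076 to 0.38 for Gstp1, from -0.11 to 0.20 for Gstt1, from -0.40 to 0.018 for Gstp2, from -0.24 to 0.19 for Ugt1a1, from -0.084 to 0.027 for Ugt2b5, from -0.14 to 0.070 for Gstm6 and from -0.089 to 0.17 for Sult1a1. In the cells it ranged from -0.34 to 0.11 for Gstt2 and from -0.89 to 0.60 for Ugt1a6a. The difference of effects ranged from -0.24 to 0.20 for Sult5a1 and from -0.11 to 0.34 for Gstt2. Over all named genes and settings, 418 of 455 liver values, 136 of 142 cell values and 126 of 144 differences kept their direction and their side of the threshold. Where a call changed the cause was not tested. A group of 3 libraries limits what the liver comparison can call, and 5 liver and 8 cell members with more than 3 counts in a library were too low for the filter.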

Other observations

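Further genes of conjugation had an unadjusted p under 0.05 in the liver, and none of them was called by edgeR in the reported fit. Of 15 genes of conjugate transport tested there, 7 had positive and 8 negative log2 fold changes, with a median of -0.032. Among the efflux pumps of that list with an unadjusted p under 0.05, Abcc5 went from 3.31 ± 0.866 to 1.64 ± 0.585 CPM, Abcc1 from 2.34 ± 0.752 to 1.21 ± 0.224 CPM (log2 fold change -0.95 (SE 0.35)) and Abcc6 from 94.9 ± 12.5 to 78.2 ± 1.84 CPM (-0.28 (SE 0.13)). The methyltransferase Gnmt, which spends S-adenosylmethionine on glycine, went from 2129 ± 439 to 2828 ± 276 CPM (0.41 (SE 0.17)), and its groups did not overlap. Mgst3 went from 25.6 ± 1.43 to 18.5 ± 5.44 CPM (-0.47 (SE 0.19)) in the liver, with overlapping groups, and was called lower in the cells. Entpd5, a nucleoside diphosphatase of the endoplasmic reticulum, went from 267 ± 30.8 to 212 ± 15.4 CPM (-0.33 (SE 0.13)), and Bpnt1, which removes the spent sulfate donor, from 53.7 ± 6.05 to 65.9 ± 0.971 CPM (0.30 (SE 0.12)).

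In the cells, As3mt, an arsenic methyltransferase, fell by 0.45 on the log2 scale (edgeR adjusted p 0.00452), and the sulfate carrier Slc26a2 fell by 0.42 (edgeR adjusted p 0.00613). Abcc4 rose by 0.37 (edgeR adjusted p 0.0100) and Bpnt2 by 0.29 (edgeR adjusted p 0.0365). Of 5 genes listed as cholangiocyte markers, 1 was tested in the cells and called higher, and Krt19 and Sox9 were at 0. The list summed to 797 to 918 CPM without and 4793 to 9730 CPM with esculetin. Since the other genes were too low for the filter, this sum is nearly that of 1 gene and does not describe cholangiocytes.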
